A study of Rattus norvegicus with 174 samples.

Results

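The 10 genes described here are genes of heart muscle that respond to mechanical or metabolic load, followed after inhalation of phosphine: Nmrk2, Ankrd1, Ankrd2, Klhl40, Flnc, Ky, Acta1, Myh7, Nppa and Nppb. They are 10 of the 13438 genes that the arrays measured with a probe set of their own, and each was read by the probe set whose platform symbol is that gene. Ankrd1, Flnc, Myh7 and Ky have 2 probe sets each, of which the one with the brighter average across the 174 arrays stands for the gene. The genes were picked with their heart response to phosphine in view, so their differences between phosphine and air in heart are given as a description, with no p-value, and counts of calls among them are printed beside the share of all genes without being read as a result. Levels without phosphine, other tissues and other genes of the same pathways are given with the test.

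The arrays came from 33 adult male Sprague-Dawley rats, an outbred stock, and each group is made of separate rats. Rats breathed phosphine (PH3), a fumigant gas, at 660 ppm for 32.2 min by whole-body exposure, a product of 21252 ppm x min, or breathed air, and were sampled 1, 3, 6 or 24 h later. All animals were killed under ketamine and xylazine, so every group, air included, shares that anaesthesia. Heart, lung, kidney, liver and brain were taken from each of 30 rats, 4 per exposure and time except for 2 air rats at 6 h, and 3 further exposed rats gave blood alone. For blood there were 4 samples in each group at 1 and 3 h. At 6 h 5 exposed rats stood against 1 air rat, and at 24 h blood came from 2 exposed rats alone. Values of a group are listed in the order of the rat numbers. They are log2 signals, and a difference of 1 is a change of 2-fold. A signal depends on the probes, so levels are compared between arrays for 1 gene and never between genes.

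Heart muscle that is stretched, overloaded or injured changes a recognised set of transcripts. Genes of the fetal heart (Nppa, Nppb, Myh7, Acta1) return in long-standing load, and proteins that sit on titin, the Z-disc and filamin (Ankrd1, Ankrd2, Flnc) act as sensors and supports of the strained sarcomere. Nmrk2 is a muscle enzyme that makes the precursor of NAD from nicotinamide riboside, and is known to rise in failing hearts.

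The heart arrays carried the markers of their tissue: the mean of 9 measured cardiomyocyte markers lay within -0.61 and 0.10 of its median on all 30 arrays. Markers of fast skeletal muscle, another source of Acta1, Ankrd2 and Klhl40 transcripts, stayed within -0.31 and 0.32 of their median over 8 of 12 markers measured, and Tnnt3 did not exceed 3.41 on any heart array. Markers of another organ stood 4 or more log2 units above the heart median on 4 phosphine heart arrays. Hepatocyte markers did so on Rat729 at 3 h (8.40), Rat760 at 6 h (4.07) and Rat741 at 24 h (8.07), and alveolar epithelium markers on Rat749 at 24 h (6.54). Hepatocyte markers were also raised by 3.11 and 3.17 on both 6 h air arrays. Results that rest on the 4 phosphine arrays named above are given with and without them. Both 6 h air arrays were kept in that setting, so no 6 h difference given there is free of them.

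The promoters of 9 of the 10 genes were in the RefSeq table of assembly GRCr8, and 6 of these are shown. Those of Flnc, Myh7 and Ky are counted below but not printed. Each run gives the 250 bases before the start of the gene, 5′ to 3′ on the strand of the gene. Capitals mark letters of 6 motifs known from muscle or general promoters: the serum response factor box (CArG), the MEF2 site, the TEAD or MCAT letters CATTCC, the GATA letters GATAAG, the TATA letters TATAAA and the E-box CAGCTG, each searched on both strands.
Nmrk2 (chr7:9165317-9165566, plus strand): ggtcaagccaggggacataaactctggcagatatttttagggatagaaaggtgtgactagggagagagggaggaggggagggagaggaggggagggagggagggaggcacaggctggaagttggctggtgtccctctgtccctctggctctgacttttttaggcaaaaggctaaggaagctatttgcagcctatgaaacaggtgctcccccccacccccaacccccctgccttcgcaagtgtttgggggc
Ankrd2 (chr1:250796169-250796418, plus strand): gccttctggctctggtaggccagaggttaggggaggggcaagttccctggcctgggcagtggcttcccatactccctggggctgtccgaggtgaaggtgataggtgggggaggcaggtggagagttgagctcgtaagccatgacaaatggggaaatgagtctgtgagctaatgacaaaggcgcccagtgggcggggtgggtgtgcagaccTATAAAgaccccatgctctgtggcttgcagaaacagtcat
Klhl40 (chr8:130318543-130318792, plus strand): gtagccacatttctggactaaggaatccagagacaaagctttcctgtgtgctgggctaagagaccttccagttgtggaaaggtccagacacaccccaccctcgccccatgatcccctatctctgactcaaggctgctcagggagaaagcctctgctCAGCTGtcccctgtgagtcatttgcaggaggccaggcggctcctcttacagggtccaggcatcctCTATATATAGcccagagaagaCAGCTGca
Acta1 (chr19:68784195-68784444, minus strand): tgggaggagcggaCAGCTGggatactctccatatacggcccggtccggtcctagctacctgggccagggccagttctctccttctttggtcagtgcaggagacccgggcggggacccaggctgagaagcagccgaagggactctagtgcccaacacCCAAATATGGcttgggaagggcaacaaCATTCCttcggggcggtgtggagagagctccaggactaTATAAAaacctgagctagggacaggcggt
Nppa (chr5:163711934-163712183, plus strand): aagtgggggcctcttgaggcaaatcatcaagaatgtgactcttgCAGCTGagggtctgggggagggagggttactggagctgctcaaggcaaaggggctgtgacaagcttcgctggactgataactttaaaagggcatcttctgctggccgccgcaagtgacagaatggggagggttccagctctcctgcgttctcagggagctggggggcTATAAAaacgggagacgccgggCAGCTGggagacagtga
Nppb (chr5:163699758-163700007, plus strand): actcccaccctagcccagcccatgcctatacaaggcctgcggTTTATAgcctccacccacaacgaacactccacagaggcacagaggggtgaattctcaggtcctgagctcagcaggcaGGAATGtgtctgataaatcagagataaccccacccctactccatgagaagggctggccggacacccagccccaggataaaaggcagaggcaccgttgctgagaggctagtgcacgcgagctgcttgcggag
The Acta1 window held a CArG box from 94 to 85 bases before the start, CATTCC from 67 to 62 and TATAAA from 29 to 24. Klhl40 held a MEF2 site from 29 to 20 bases before the start and CAGCTG on both sides of it. Nppb held CATTCC from 131 to 126 and TATAAA from 208 to 203 bases before the start, both on the opposite strand. In Ky, whose promoter is not printed, TATAAA lay from 216 to 211 bases before the start. Ankrd2 held TATAAA alone, and the Nmrk2 window held none of these letters. Of all 33469 promoters in the table, 1.5% held a CArG box, 2.96% a MEF2 site, 12.1% CATTCC, 6.18% GATAAG, 12.9% TATAAA and 12% CAGCTG in a window of the same length. Among the 9 promoters, 1 held a CArG box, 1 a MEF2 site, 3 CATTCC, 0 GATAAG, 5 TATAAA and 4 CAGCTG. These are matches of letters only. Nppa and Nppb are neighbours on chromosome 5, and Myh7 lies next to Myh6 on chromosome 15.

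Nmrk2 was higher after phosphine on average at each time, and most at 24 h. At 1 h the log2 signals were 6.21, 6.06, 5.44 and 6.88 in air and 7.62, 7.14, 5.95 and 7.0 after phosphine. At 3 h they were 6.58, 6.54, 6.05 and 6.03 in air and 7.49, 6.98, 8.48 and 7.85 after phosphine. At 6 h the 2 air rats read 7.12 and 7.0 and the exposed rats 8.58, 9.11, 8.46 and 8.25. From 3 h on every exposed heart was above every air heart, while at 1 h Rat716 lay within the air range. At 24 h the air hearts read 6.73, 6.85, 6.58 and 7.0, against 8.75, 10.63, 10.43 and 10.81 after phosphine. The lowest exposed value at 24 h was that of Rat741, the array with hepatocyte transcripts, and it was still above all air hearts. The log2 differences were 0.78 ± 0.38 at 1 h, 1.40 ± 0.38 at 3 h, 1.54 ± 0.47 at 6 h and 3.36 ± 0.38 at 24 h (± SE of the limma fit here and below), the last a 10.3-fold difference. Leaving out 1 rat at a time moved the 24 h value between 3.14 and 3.83. Without the arrays that hold another organ the differences at 3, 6 and 24 h were 1.64, 1.37 and 3.74, so that the 6 h value was then below the 3 h value. In bulk tissue a change in the number of cells of a type and a change of RNA per cell cannot be told apart.

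**Figure D1:**
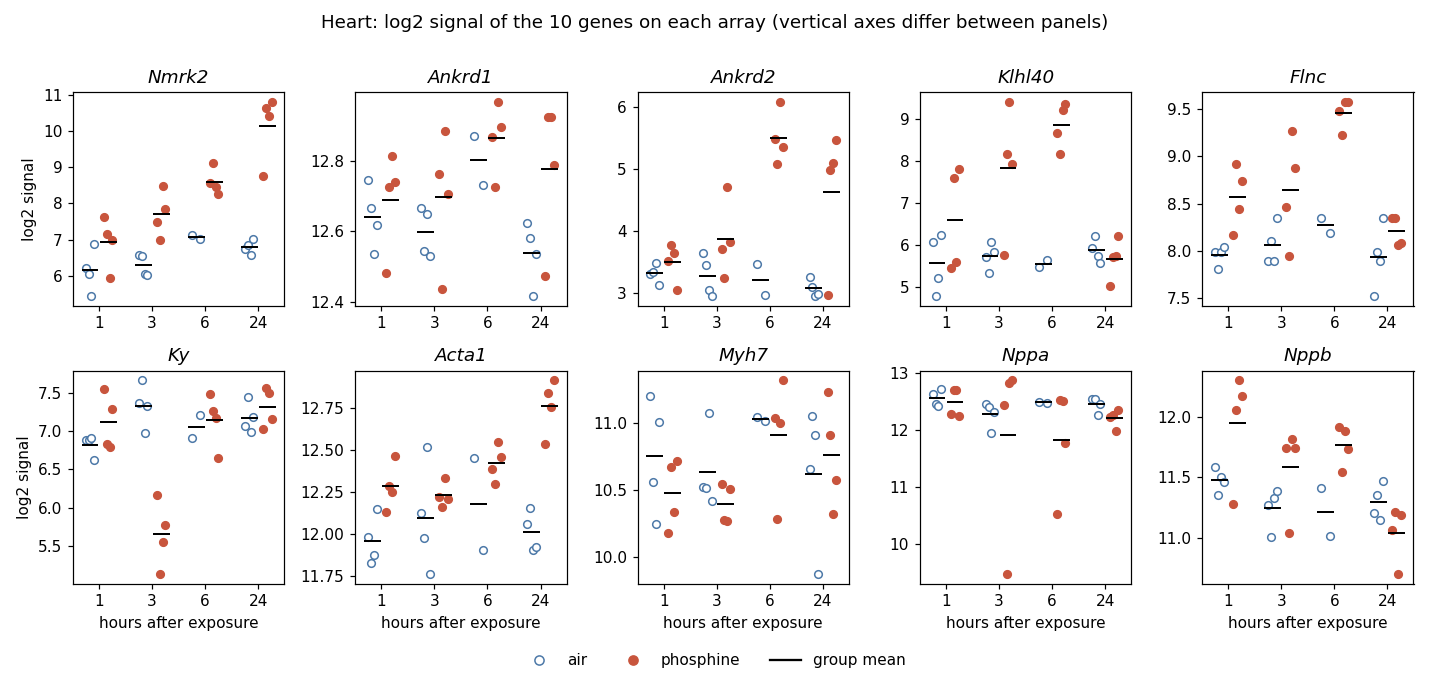
Log2 signal of the 10 genes on each of 30 heart arrays (vertical axis) at 1, 3, 6 and 24 h after exposure (horizontal axis); open points are air rats, filled points phosphine rats, and bars group means. Nmrk2 separates furthest at 24 h (air 6.58 to 7.0, phosphine 8.75 to 10.81), Klhl40 and Flnc at 6 h, Ankrd2 at 6 and 24 h, and Ky is lower at 3 h, while the vertical axes differ between panels.

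Ankrd2, a muscle ankyrin repeat protein of the titin I-band and the nucleus, lay below the median of all probe sets (4.41) in air hearts and was above it on most exposed hearts at 6 and 24 h. At 1 h the air hearts read 3.31, 3.34, 3.49 and 3.14 and the exposed hearts 3.53, 3.77, 3.65 and 3.05. At 3 h the air hearts read 3.65, 3.46, 3.06 and 2.96 and the exposed hearts 3.71, 3.24, 4.72 and 3.83. Only Rat730 stood clear of the air hearts by more than 1 unit at that time. At 6 h the air hearts read 3.47 and 2.97 and the exposed hearts 5.48, 5.09, 6.09 and 5.37. At 24 h the air hearts read 3.27, 3.09, 2.96 and 2.99 and the exposed hearts 2.97, 4.98, 5.10 and 5.48. All exposed hearts were above air at 6 h, and 3 of 4 at 24 h, where Rat741 stayed at the air level. The differences were 0.18 ± 0.36, 0.59 ± 0.36, 2.29 ± 0.44 and 1.55 ± 0.36 at 1, 3, 6 and 24 h, and the last became 2.11 without Rat741 and 1.96 without Rat741 and Rat749. Without the arrays that hold another organ the differences at 3 and 6 h were 0.81 and 2.43.

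Ankrd1, the cardiac ankyrin repeat protein and a classic marker of cardiac load, differed little between groups. Its 30 values lay between 12.42 and 12.97, and the highest signal of any gene on any array was 14.13. Whether signals this high can still follow a rise was not tested, here or for Acta1 and Nppa below. The differences were 0.05 ± 0.10, 0.10 ± 0.10, 0.06 ± 0.13 and 0.24 ± 0.10, and the groups overlapped at every time. At 24 h 3 of 4 exposed hearts (12.92, 12.92 and 12.79) exceeded all air hearts (12.42 to 12.62), and Rat741 read 12.47. Without the arrays that hold transcripts of another organ the 24 h difference was 0.38. Its second probe set gave 0.11, 0.07, 0.12 and 0.22.

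Klhl40, a kelch protein that stabilises nebulin and leiomodin in the thin filament, varied widely among exposed rats early on, and its difference was no longer seen at 24 h. At 1 h the air hearts read 6.06, 4.78, 5.20 and 6.22, and the exposed hearts fell into high values for Rat712 and Rat719 (7.60 and 7.81) and air-like values for Rat710 and Rat716 (5.43 and 5.58). At 3 h the air hearts read 5.71, 5.31, 6.06 and 5.83, and the exposed hearts 5.76, 8.19, 9.42 and 7.94, of which Rat728 lay within air. At 6 h the air hearts read 5.47 and 5.63, and all 4 exposed hearts were well above them at 8.67, 8.17, 9.22 and 9.37. At 24 h the groups overlapped fully, at 5.93, 6.21, 5.74 and 5.57 in air and 5.02, 5.71, 5.73 and 6.21 after phosphine. The differences were 1.04 ± 0.56, 2.10 ± 0.56, 3.31 ± 0.68 and -0.20 ± 0.56, the third a 9.89-fold difference. Without the arrays that hold another organ they were 1.98 at 3 h and 3.54 at 6 h.

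Flnc, filamin C, which crosslinks actin at the Z-disc and intercalated disc, followed a similar course at a smaller size. At 1 h the air hearts read 7.98, 7.81, 7.99 and 8.03 and the exposed hearts 8.17, 8.91, 8.44 and 8.74, all above air. At 3 h the air hearts read 7.89, 8.10, 7.89 and 8.34 and the exposed hearts 8.47, 7.94, 9.27 and 8.87, with Rat729 within air. At 6 h the air hearts read 8.35 and 8.19 and the exposed hearts 9.49, 9.22, 9.58 and 9.57, again all above air. At 24 h the air hearts read 7.52, 7.98, 7.89 and 8.34 and the exposed hearts 8.34, 8.35, 8.06 and 8.08, which overlapped. The differences were 0.61 ± 0.21, 0.58 ± 0.21, 1.2 ± 0.25 and 0.28 ± 0.21. Its second probe set gave 1.01 ± 0.26, 0.72 ± 0.26, 1.09 ± 0.31 and 0.38 ± 0.26. Without the arrays that hold another organ the first probe set gave 0.81 at 3 h and 1.28 at 6 h.

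Ky, the kyphoscoliosis peptidase, a Z-disc enzyme that binds filamin C, had a lower signal after phosphine at 3 h. The air hearts then read 7.37, 7.66, 6.97 and 7.33 and the exposed hearts 6.16, 5.13, 5.55 and 5.77, so that no exposed heart reached the air range. The lowest was Rat729, the array with hepatocyte transcripts, and leaving out 1 rat at a time gave -1.85 to -1.51 around the difference of -1.68 ± 0.21 over all rats. The second Ky probe set gave -2.42 ± 0.31. At 1, 6 and 24 h Ky differed by 0.29 ± 0.21, 0.08 ± 0.25 and 0.14 ± 0.21 and the groups overlapped. The second probe set gave the opposite sign at those times, -0.03 ± 0.31, -0.33 ± 0.37 and -0.17 ± 0.31. Beside the 3 h value, the mean of 5 ventricular cardiomyocyte markers was 7.86 to 8.54 in exposed and 8.63 to 9.14 in air hearts, while the 9 cardiomyocyte markers were at 11.75 to 12.33 and 12.37 to 12.42. Their part in the Ky difference was not tested.

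Acta1, skeletal alpha-actin, the fetal actin of the rodent ventricle, differed at 24 h. The air hearts read 12.06, 12.15, 11.91 and 11.92 and the exposed hearts 12.54, 12.84, 12.76 and 12.92, without overlap, and the difference was 0.76 ± 0.13, or 1.69-fold (0.79 without Rat741 and Rat749). The earlier differences were 0.33 ± 0.13, 0.14 ± 0.13 and 0.24 ± 0.16 at 1, 3 and 6 h, with overlapping groups. The 6 h value depended on which air rat was kept, being 0.52 without Rat762 and -0.03 without Rat763. The 3 exposed hearts with the highest Nmrk2 at 24 h also had the highest Acta1 and Ankrd2, and Rat741 was lowest in all of them.

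Myh7, the slow beta-myosin heavy chain that marks the fetal program in rodents, did not follow the other genes. Its heart signals ran from 10.25 to 11.20 in air and from 10.18 to 10.71 after phosphine at 1 h, and from 9.87 to 11.05 and 10.32 to 11.22 at 24 h. The differences were -0.28 ± 0.25, -0.23 ± 0.25, -0.12 ± 0.30 and 0.14 ± 0.25. Each was smaller than the SD of the wider group at its time, and the groups overlapped at every time. With the second Myh7 probe set they were -0.17 ± 0.31, -0.19 ± 0.31, -0.13 ± 0.37 and 0.35 ± 0.31. Without the arrays that hold another organ the first probe set gave -0.19, 0.09 and -0.005 at 3, 6 and 24 h. The neighbouring Myh6 gene is close in sequence, and how far the probes tell them apart was not tested.

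Nppb, which encodes brain natriuretic peptide, was higher in most exposed hearts during the first 6 h. At 1 h the air hearts read 11.59, 11.36, 11.50 and 11.47, against 12.06, 12.30 and 12.17 in 3 exposed hearts and 11.28 in Rat710. At 3 h the air hearts read 11.28, 11.01, 11.33 and 11.39, against 11.74, 11.82 and 11.74 in 3 exposed hearts and 11.04 in Rat729. At 6 h the exposed hearts (11.92, 11.54, 11.88 and 11.74) were all above air (11.41 and 11.02). By 24 h the exposed mean was the lower one, with 11.07, 11.21, 10.70 and 11.19 in exposed and 11.20, 11.35, 11.15 and 11.47 in air hearts. The differences were 0.47 ± 0.18, 0.33 ± 0.18, 0.56 ± 0.22 and -0.25 ± 0.18. Without the arrays that hold another organ they were 0.52, 0.63 and -0.34 at 3, 6 and 24 h, and leaving out 1 rat at a time gave 0.36 to 0.75 at 6 h.

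Nppa, which encodes atrial natriuretic peptide, did not share that pattern. Its differences were -0.07 ± 0.48, -0.38 ± 0.48, -0.66 ± 0.59 and -0.24 ± 0.48. The air hearts lay between 11.95 and 12.72 at all times, and 3 exposed hearts fell below that range: Rat729 at 3 h (9.47), Rat758 at 6 h (10.52) and Rat789 at 6 h (11.77). The same 3 arrays had the lowest means of atrial markers among the 30. The mean of 5 atrial cardiomyocyte markers measured stood at -2.87, -2.31 and -1.05 from the heart median there, and at 8.59 to 9.33 on the other exposed hearts. At 24 h these markers were at 8.59 to 8.95 in exposed and 9.24 to 9.39 in air hearts. On Rat729, Rat758 and Rat789 sarcolipin (Sln) read 6.04, 7.05 and 9.32 against a heart median of 10.70. The atrial light chain Myl7 read 8.35, 9.90 and 11.37 against 12.46. Myl4 read 7.24, 7.79 and 9.55 there against 10.87, and Kcnj3 3.65, 3.98 and 4.67 against 5.85. The last marker, Nr2f2, read 6.19, 5.54 and 5.63 against 5.85, so it was not low on Rat729. How much atrium each piece of heart held is not given in the labels, and its part in the Nppa values was not tested. Without Rat729 the 3 h difference in Nppa was 0.43. The 6 h difference was -0.22 without Rat758 and 0.03 without Rat758 and Rat789, the latter a setting chosen after seeing the data, and -0.89 without Rat760, whose array held hepatocyte transcripts. On the same 3 arrays Nppb read 11.04 in Rat729, below the other exposed hearts of its time, and 11.92 and 11.74 in Rat758 and Rat789, among the exposed values of theirs.

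**Figure D2:**
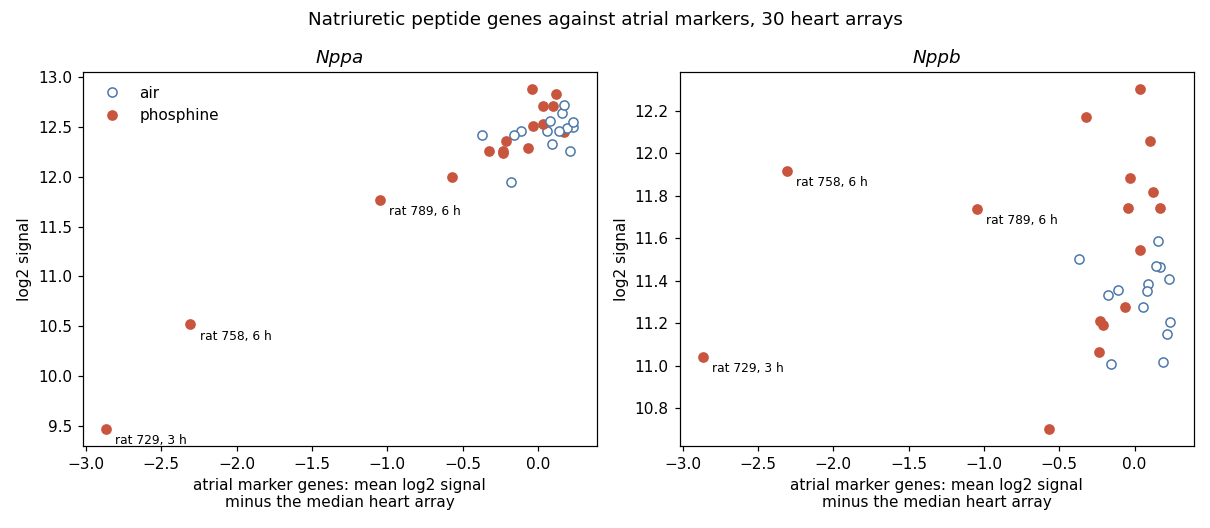
Log2 signal of Nppa and Nppb (vertical axes) against the mean of the atrial marker genes relative to the median heart array (horizontal axis, log2) on 30 heart arrays; open points are air and filled points phosphine rats. For Nppa the 3 labelled phosphine arrays, with atrial markers at -2.87, -2.31 and -1.05 from the median, are the 3 lowest values, while for Nppb they lie within the range of the other arrays.

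Counted over the set, limma called 0 of the 10 genes in heart at 1 h at an adjusted p under 0.05, where 1.33% of all genes passed (0.99% higher). At 3 h it called 3 of 10 (Nmrk2 and Klhl40 higher, Ky lower), with 3.33% of all genes (1.06% higher, 2.28% lower). At 6 h it called 3 (Ankrd2, Klhl40 and Flnc), all higher, with 0.35% (0.186% higher), and at 24 h 2 (Nmrk2 and Acta1), both higher, with 0.0819% (0.0744% higher). Exposed and air hearts did not overlap for 1, 2, 5 and 2 of the 10 genes at 1, 3, 6 and 24 h, against 6.3%, 8.45%, 24.6% and 7.11% of all genes. The choice of the genes used these contrasts, so nothing is read from these counts. The median difference of the 10 genes was 0.31, 0.24, 0.40 and 0.19, beside -0.00105, -0.02, -0.02 and -0.01 over all genes.

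The other genes of the same pathways come from lists that were also drawn up with earlier results of these data known, so their counts describe these genes and are no independent evidence. Of 120 genes on 7 lists 103 were measured, and limma's test (Benjamini-Hochberg adjusted over 13438 genes) called 4 higher and 0 lower at 1 h (3.88% of them), 2 higher and 4 lower at 3 h (5.83%), 1 higher at 6 h (0.971%) and 0 at 24 h, against the background shares of 1.33%, 3.33%, 0.35% and 0.0819% given above. The list medians lay between -0.26 and 0.15.

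At 1 h the called genes were Ccn1, Ccn2, Xirp1 and Lmod2, of which the first pair belongs to 18 load-responsive regulators. Ccn1, a secreted matricellular protein and a target of YAP and serum response factor signalling, read 8.21, 10.12, 7.93 and 9.73 after phosphine and 5.38 to 5.78 in air. Its difference was 3.46 ± 0.75 (limma adjusted p = 0.0187), and it lost its call without Rat712 or Rat719 (adjusted p = 0.0926 and 0.0801). Ccn2, connective tissue growth factor, was higher by 1.43 ± 0.28 (adjusted p = 0.00651) at 11.27 to 11.81 against 9.67 to 10.33, and kept its call without any 1 rat. Xirp1, the Xin protein of the intercalated disc that binds filamin C, was higher by 1.5 ± 0.35 (adjusted p = 0.0306) and Lmod2, cardiac leiomodin, by 0.74 ± 0.19 (adjusted p = 0.049). All 4 exposed hearts were above all 4 air hearts for each of these genes. The Xirp1 call was lost on leaving out any of 6 rats and the Lmod2 call on leaving out any of 7, with adjusted p up to 0.162 and 0.182. Rat712 and Rat719, which had the highest Klhl40 at 1 h, also had the highest Xirp1 (9.73 and 9.95, against 8.49 and 8.35 in Rat710 and Rat716) and Ccn1.

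At 3 h Ccn2 (1.17, adjusted p = 0.02) and Rcan1, the calcineurin regulator (0.67, adjusted p = 0.00482), were higher. Klhl38, a kelch relative of Klhl40, was lower by 1.39 (a log2 difference of -1.39 ± 0.31, adjusted p = 0.0122), at 6.47, 4.19, 5.65 and 6.31 against 6.86 to 7.18 in air. Klhl40 itself was above all air values in 3 of these 4 hearts, and Rat729 had the lowest Klhl38, without which the difference was -0.90. The transcription factor Hand2 (-0.73, adjusted p = 0.0302), Nfatc3 (-0.45, adjusted p = 0.0241) and the natriuretic peptide receptor Npr2 (-0.48, adjusted p = 0.0493) were lower as well. The Rcan1 and Klhl38 calls held without any 1 rat, but those of Ccn2, Hand2, Nfatc3 and Npr2 were lost on leaving out any of 4, 5, 6 and 7 rats, with adjusted p up to 0.0814, 0.134, 0.0836 and 0.181. Without Rat729, whose array held hepatocyte transcripts, Hand2 stood at -0.51 (limma adjusted p = 0.134), Nfatc3 at -0.41 (0.0829) and Npr2 at -0.39 (0.181).

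At 6 h the called gene was Mrtfa, the actin-regulated coactivator of serum response factor (0.99, adjusted p = 0.0337), at 5.58 to 6.13 in exposed and 4.86 and 4.92 in air hearts. Its call was lost without any of 5 of the 6 rats, with adjusted p up to 0.489. When each time was fitted on its own 2 groups alone, Ccn1 and Ccn2 at 1 h kept their calls and the other 9 gene and time pairs lost them (adjusted p = 0.0865 to 0.338). Array median centring ended the calls of Lmod2, Hand2, Npr2 and Mrtfa (adjusted p = 0.127, 0.0727, 0.0844 and 0.0561).

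Around Nmrk2, 0 of 15 NAD genes were called at any time. Nampt, the main salvage enzyme, differed by 0.02 ± 0.17, 0.05 ± 0.17, -0.36 ± 0.21 and 0.02 ± 0.17, and Nmrk1, the other nicotinamide riboside kinase, by -0.34 to -0.04. Around Ankrd1 and Ankrd2, Xirp1 was the called gene among 17 Z-disc and titin partners. Fhl1, a LIM protein on titin, differed by 0.65 ± 0.22 at 6 h and 0.74 ± 0.18 at 24 h without passing the test (adjusted p = 0.242 and 0.135). Around Flnc, 0 of 11 filamin partners and chaperones of filamin turnover were called, among them Bag3 (-0.14 to 0.18). Around Acta1 and Myh7, 0 of 20 other contractile and calcium handling genes were called. The clearance receptor Npr3 stood at -1.10 ± 0.31 at 6 h and did not pass (adjusted p = 0.149).

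**Figure D3:**
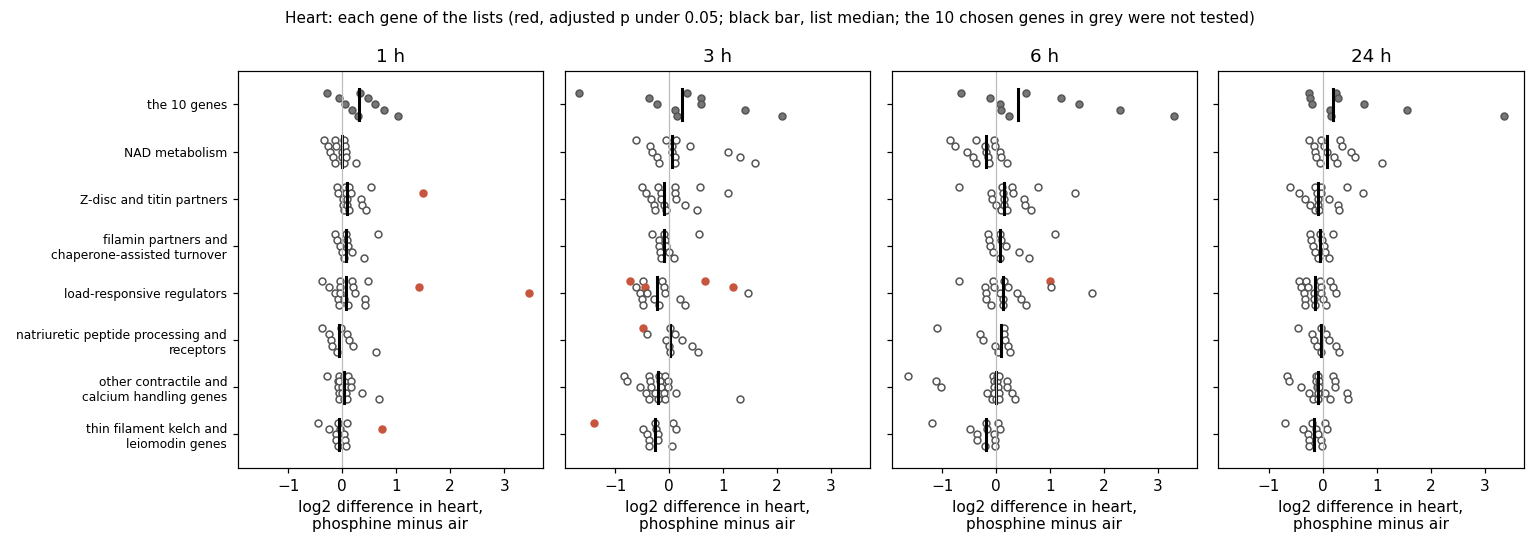
Log2 difference in heart, phosphine minus air (horizontal axis), of the 10 genes and of each measured gene of the 7 lists (rows) at 1, 3, 6 and 24 h; red points passed limma's adjusted p under 0.05, bars are medians, and grey points are the 10 genes, which were chosen on these contrasts. Ccn1 at 1 h (3.46) lies furthest right among the list genes, and no list gene is red at 24 h.

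By the Pearson correlation of log2 signals over the 30 heart arrays, the closest of 6719 genes above the median level differed from member to member. The arrays share exposure groups and tissue composition, so these are descriptions. For Nmrk2 they were Gpnmb (r = 0.86), Fhl1 (0.82) and Prss23 (0.82), and for Ankrd2 Fhl1 (0.91), Timp1 (0.89) and Agpat3 (0.88). Klhl40 was closest to Lmcd1 (0.90), Uck2 (0.89) and Slc20a1 (0.86), and Flnc to Fgl2 (0.88), Lmcd1 (0.87) and Fstl3 (0.86). Acta1 was closest to Nmrk2 itself (0.81), then Fhl1 (0.73) and Mustn1 (0.72), and Ankrd1 to Csrp3 (0.85), Fdx2 (0.77) and Akip1 (0.77). Fhl1 was thus among the nearest of Nmrk2, Ankrd2 and Acta1, and Lmcd1 among those of Klhl40 and Flnc. Nppa went with the atrial genes Mybphl (0.98), Myl7 (0.97) and Sln (0.97), and Nppb with Mafk (0.86), Dnajb5 (0.82) and Ppp1r15a (0.80). Ky was closest to Gata5 (0.82), Cdc42ep3 (0.81) and Gja1 (0.78). Myh7 had no close partner, its highest value being 0.61 with Lin7c. With group means removed, the values fell for most pairs, for example to 0.28 for Acta1 with Nmrk2, but stayed at 0.87 for Ankrd2 with Fhl1 and 0.98 for Nppa with Mybphl. Gpnmb is a gene of macrophages, and the mean of 9 macrophage markers at 24 h was 7.40 to 7.79 in exposed and 6.93 to 7.28 in air hearts. Its part in the Nmrk2 correlation was not tested.

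Without phosphine the set was a heart set among the solid tissues, with 1 exception. In the 70 air arrays of the 5 solid tissues (14 rats), 9 of 10 genes were higher in heart than in each of lung, kidney, liver and brain by limma with Benjamini-Hochberg adjustment, against 14.6% of all genes. The genes were listed as genes of heart muscle, so this count follows in part from the choice and is no independent evidence. Nmrk2 had a mean log2 signal of 6.51 ± 0.48 (SD, n = 14) in heart and 2.84 to 3.37 in the other solid tissues. Ankrd1 was at 12.62 ± 0.11 in heart, 8.70 ± 0.39 in lung and 2.94 to 3.83 in kidney, liver and brain. Lung is the other tissue with a clear Ankrd1 signal, and lung arrays also carried the cardiac transcript Myh6 at a median of 9.25. Klhl40 was at 5.70 ± 0.41 in heart and 3.38 to 3.66 in the other solid tissues. Flnc was at 8.02 ± 0.23 in heart and 3.15 to 4.81 in those tissues, and Ky at 7.10 ± 0.28 and 3.76 to 4.37. Acta1 stood at 12.04 ± 0.22 in heart, 6.32 ± 0.43 in brain and 2.61 and 2.71 in kidney and liver. Myh7, Nppa and Nppb were at 10.72 ± 0.38, 12.44 ± 0.18 and 11.32 ± 0.17 in heart. Their means in the other solid tissues were no higher than 3.67, 4.40 and 3.14. Single air lungs reached 6.33 for Myh7 and 6.92 for Nppa. The exception was Ankrd2, at 3.23 ± 0.23 in heart and 2.60 to 3.09 in the other solid tissues. Its difference from liver (0.14 ± 0.08) did not pass the test (limma adjusted p = 0.0889). The Ankrd2 signal of air heart was thus close to that of tissues with little striated muscle. Blood, extracted with another kit and left out of this test, had means of 2.99 to 5.57. Its Ankrd2 mean of 4.13 ± 0.57 (n = 9) was above that of air heart, a difference that was not tested. Klhl40 signals in air blood, 4.19 to 5.98 with a mean of 5.17 ± 0.69, overlapped those of air heart, 4.78 to 6.22. Ky had a blood mean of 5.57 ± 0.48, at 5.10 to 6.47 against 6.62 to 7.66 in air heart.

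**Figure D4:**
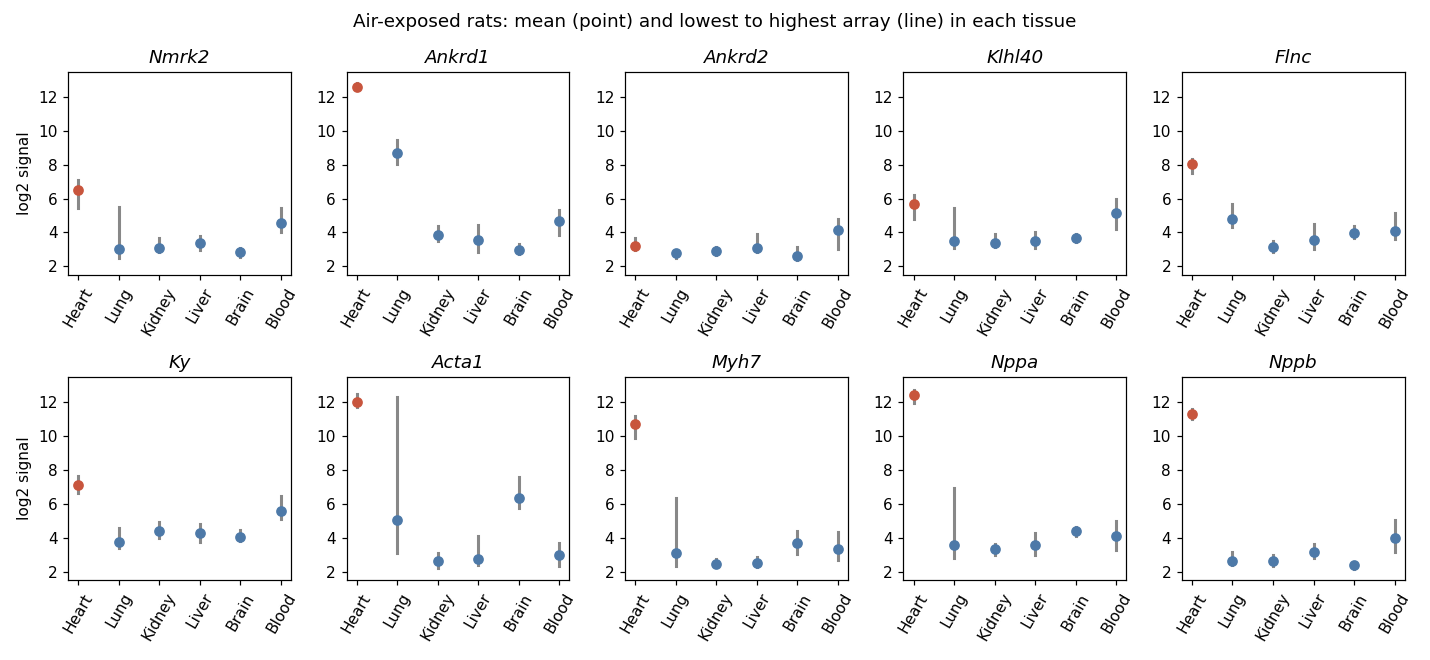
Log2 signal (vertical axis) of the 10 genes in 6 tissues (horizontal axis) of air-exposed rats; points are means and lines run from the lowest to the highest array, with heart in red, over 14 rats per solid tissue and 9 blood samples. Heart has the highest mean for each gene except Ankrd2, whose heart mean (3.23) is below its blood mean (4.13), and the long Acta1 line in lung reaches 12.32.

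The air hearts did not differ detectably over time for any of the 10 genes. limma's moderated F test called 0 of 10 (lowest adjusted p = 0.786, for Ky) and 0.104% of all genes. Nmrk2 had air means of 6.15, 6.30, 7.06 and 6.79 at 1, 3, 6 and 24 h (adjusted p = 0.84). Its 6 h difference rests on the 2 air rats of that time, which were among the highest of the air hearts. Against the air hearts of all times pooled, that difference was 2.09.

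Outside heart, 4 of 190 gene and comparison pairs passed limma's test (Benjamini-Hochberg adjusted over 13438 genes), against 2.06% of all genes in the same 19 comparisons. Lung held 2 of them, kidney 2, and liver, brain and blood 0 (background 4.38%, 2.47%, 1.1%, 0.164% and 2.22%). In none of these tissues did Nmrk2, Ankrd2, Klhl40 or Ky pass. Nmrk2 differed by -0.16 to 0.56 in the 4 other solid tissues and by 0.63, 0.36 and -0.67 in blood at 1, 3 and 6 h. Whether the heart differences are larger than those of the other tissues was not tested.

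In lung, Flnc was higher at 1 h, at 5.41, 5.34, 5.24 and 5.86 after phosphine and 4.97, 4.6, 4.6 and 4.69 in air. The difference was 0.75 ± 0.20 (limma adjusted p = 0.0203, with 5.8% of all genes called), and every exposed lung was above every air lung, where 9.5% of all genes had groups that did not overlap. The call was lost without Rat719, Rat721 or Rat726 (adjusted p = 0.0916, 0.0547 and 0.0628). Fitted on the 2 groups alone its adjusted p was 0.0602. Hepatocyte markers stood 7.92 above the lung median on the exposed array of Rat716, and without arrays that hold another organ the difference was 0.83 (adjusted p = 0.0051). The mean of 7 smooth muscle and pericyte markers was 7.67 to 7.88 in exposed and 7.48 to 7.61 in air lungs, and that of 9 cardiomyocyte markers 5.59 to 6.36 and 5.31 to 6.68. Their part was not tested.

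Ankrd1 was higher in lung at 3 h, at 10.14, 9.98, 9.25 and 9.07 after phosphine and 8.03, 9.08, 8.32 and 8.53 in air, so that 3 of 4 exposed lungs were above all air lungs. The difference was 1.12 ± 0.27 (limma adjusted p = 0.00763, with 11.6% of all genes called) and the call held without any 1 rat (adjusted p up to 0.0379). Without air Rat733, whose lung array had fast skeletal muscle markers 4.53 above the lung median, it was 1.32. Cardiac transcripts varied between these pieces of lung. The mean of 9 cardiomyocyte markers was 7.47, 7.44, 6.28 and 5.85 in the exposed lungs and 5.86, 7.44, 6.03 and 5.97 in the air lungs, in the same order of rats. Myh6 differed by 0.31 ± 0.62 and Tnnt2 by 0.92 ± 0.58 at that time, and neither passed (limma adjusted p = 0.825 and 0.348). Nppa in lung at 3 h read 7.73, 7.94, 4.89 and 3.13 against 3.27, 5.44, 2.88 and 3.04, a difference of 2.27 ± 1.12 that did not pass (adjusted p = 0.209). Rat728 and Rat729 had the highest Nppa, and they and air Rat733 had the highest cardiomyocyte markers. The part of cardiac muscle in the Ankrd1 value was not tested.

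In kidney, Acta1 was higher at 3 and 6 h at a low level of signal. At 3 h the exposed kidneys read 3.09, 3.49, 3.68 and 3.10 and the air kidneys 2.72, 2.61, 2.53 and 2.73, a difference of 0.69 ± 0.19 (limma adjusted p = 0.0228, with 6.39% of all genes called). At 6 h they read 3.47, 3.37, 3.85 and 4.18 against 2.45 and 2.22 in 2 air rats, a difference of 1.38 ± 0.23 (adjusted p = 0.00585, with 0.35% called). The groups did not overlap at either time (11.7% and 24.4% of all genes), and at 1 and 24 h they did. The 3 h call was lost without Rat729, Rat730, Rat733 or Rat738 (adjusted p up to 0.0905), and the 6 h call without either air rat, Rat762 or Rat763 (0.0917 and 0.159) and in a fit of the 2 groups alone (0.13). The mean of 8 fast skeletal muscle markers was 3.46 to 3.73 on all 30 kidney arrays, and its part in the Acta1 values was not tested. The Acta1 signals lie below the median of all probe sets, 4.41.

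**Figure D5:**
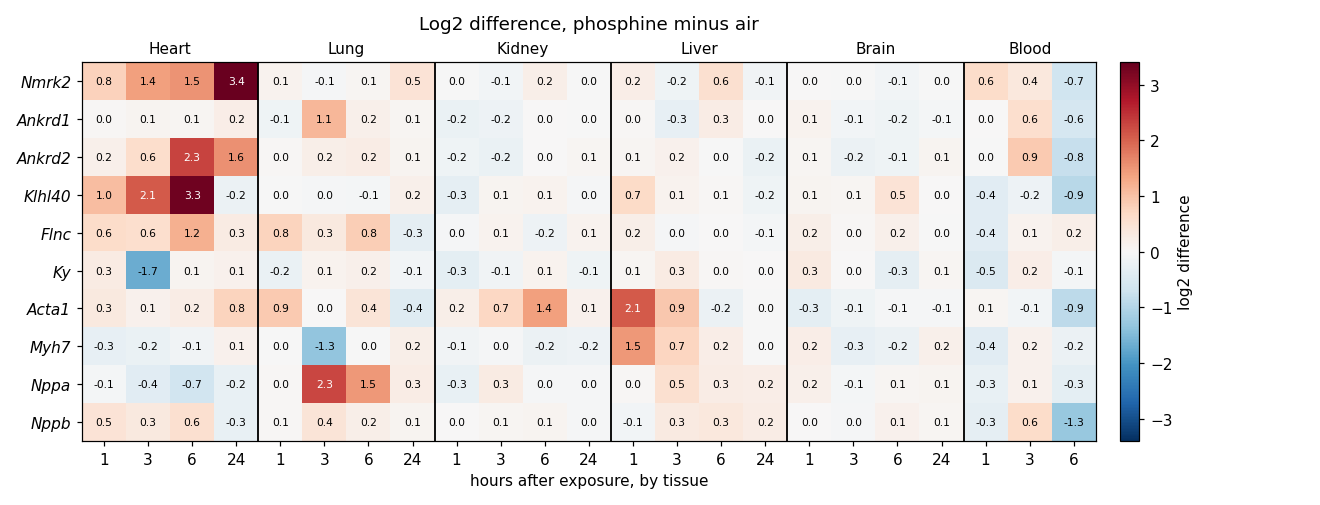
Log2 difference, phosphine minus air, of the 10 genes (rows) in 6 tissues at each time (columns, hours), printed to 1 decimal and coloured from blue (lower) to red (higher). The heart columns hold the largest values for Nmrk2 (3.36 at 24 h) and Klhl40 (3.31 at 6 h), and the cells for Acta1 in liver at 1 h (2.09, 1 array high) and Nppa in lung at 3 h (2.27, 2 arrays high) did not pass the test.

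Some large Acta1 values outside heart lay on a few arrays with skeletal muscle transcripts. In liver at 1 h Acta1 read 10.78 in Rat719 and 2.35 to 2.72 in the other exposed livers, against 2.46 to 2.60 in air, and fast skeletal muscle markers averaged 6.63 on that array and 3.06 to 3.33 on the others of that time. In liver at 3 h Acta1 read 9.06 in Rat730, whose marker mean was 5.14. In lung at 3 h Acta1 read 12.32 in air Rat733 and 9.90 in air Rat738, and 11.81 and 8.85 in exposed Rat729 and Rat728, with marker means of 8.0, 5.35, 6.66 and 4.37 against 3.33 to 3.61 on the remaining lung arrays of 1 and 3 h. The Acta1 differences there were 2.09 ± 1.33 and 0.93 in liver at 1 and 3 h and 0.02 in lung at 3 h.

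Brain differences ran from -0.34 to 0.46 over the 10 genes and blood differences from -1.30 to 0.90 (smallest adjusted p = 0.451 and 0.14). The blood values at 6 h rest on 1 air sample. The 2 blood samples at 24 h after phosphine, which have no air sample beside them, read 4.02 and 3.98 for Nmrk2, 3.33 and 3.93 for Ankrd2 and 3.70 and 4.39 for Nppb.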

How the data were processed

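RNA of 174 rat tissue samples was labelled by 3' in vitro transcription and hybridised to Affymetrix arrays, per the labels' protocols. The authors deposited log2 signals from RMA and Partek, per the submitters' processing notes, whose versions are not given in the sources used here, nor is it given whether RMA ran over all tissues together. RMA shrinks outlying probes and equalises array distributions, which can shrink large shifts. Of 31139 probe sets, 97 controls, 572 with several genes and 11407 with none named were left out, and the 19063 with 1 gene were reduced to 13438 genes by the probe set with the highest mean. Array medians lay between 4.16 and 4.64. Arrays have no read depth, so the number of rats limits the precision. No 2 arrays of a group were the same: of 250 pairs at most 0.0225% of values were identical.

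With limma 3.58.1 (R 4.3.3, lmFit and eBayes), 1 model per tissue held all groups of that tissue, and phosphine was set against air at each time, with Benjamini-Hochberg adjustment over 13438 genes and a threshold of 0.05. Air arrays of the solid tissues were compared in a second fit, and air hearts over time by a moderated F test. The code was tested on simulated data. The 10 genes and all lists were chosen with earlier results of these data known. Outside the set, the genes named are those of the pathway lists that passed the test, the list genes closest to a member in function, and the 3 genes nearest to each member by correlation over heart arrays. Fhl1, Nampt, Nmrk1, Bag3 and Npr3 were picked with their values known. Other settings tried were median centring, quantile normalization, a filter at the 40 percentile, means over probe sets, robust eBayes, 2-group fits, pooled air, a rat block and left-out rats.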

Additional observations from a re-analysis of the deposited data

Results flagged for a closer look

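Of 77 sets of values looked at, such as those of 1 gene in 1 heart group, 4 held a value far from the others. Chance gives about 1 in 20. In exposed hearts at 3 h, Rat729 had an Nppa signal of 9.47 against 12.45 to 12.88 in the other 3. The same rat had an Nppb signal of 11.04 against 11.74 to 11.82. Its array also had the lowest mean of atrial markers and the highest mean of hepatocyte markers of the 30 hearts. The part of these in both values was not tested. In air hearts at 3 h, Rat738 had a Myh7 signal of 11.07 against 10.42 to 10.52. In air hearts at 1 h, Rat727 had a Ky signal of 6.62 against 6.88 to 6.91.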

How the results depend on the processing

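No value changed sign among those called, and of 484 values under other settings 451 kept direction and side of the threshold, as did 361 of 416 with 1 rat left out. The cause of each change below was not tested unless the setting itself shows it. The count of the 10 genes called in heart (0, 3, 3 and 2 at 1, 3, 6 and 24 h) became 1 at 1 h with means over probe sets and with pooled air. With the 2 groups alone, and so fewer samples, it became 0 at 3, 6 and 24 h. With pooled air it became 5 at 6 h, with median centring 1 at 24 h, and without the 3 low atrial arrays, a choice made after seeing the data, 0 at 6 h. The 6 h differences themselves stayed between 3.15 and 3.54 for Klhl40, 2.28 and 2.43 for Ankrd2 and 1.13 and 1.44 for Flnc under all these settings. With 1 rat left out it ran from 0 to 1, 1 to 3, 0 to 3 and 1 to 3.

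The count of pathway genes called (4, 6, 1 and 0) became 7, 16, 17 and 2 with pooled air, which has more air rats. It became 0 at 3 and 6 h with the 2 groups alone, and 0 at 6 h with quantile normalization, median centring or without the low atrial arrays. Without the arrays that hold another organ it became 9 at 6 h and 1 at 24 h, and without the low atrial arrays 2 at 24 h. With 1 rat left out it ran from 1 to 5, 2 to 18, 0 to 4 and 0 to 2.

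In lung, 2 calls became 1 without dim genes and with the 2 groups alone and 4 with pooled air, and ran from 1 to 3 with 1 rat left out. In kidney, 2 became 0 without dim genes, a filter that removes Acta1 there, and 1 with the 2 groups alone, and ran from 1 to 3. Liver, brain and blood stayed at 0 with any 1 rat left out, as did air heart over time. The 9 genes higher in air heart became 3 without dim genes, a filter that removes members themselves from the test. With 1 rat left out the count ran from 9 to 10. Phosphine and air groups share no rats, so no pairing exists between them. With the rat as a replicate block across tissues, 9 genes and 39 of 40 pairs were called as before (consensus correlation 0.013).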
